A study of Homo sapiens with 2 samples.

Results

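Variant-like positions are A positions of nuclear transcripts at which a large part of the reads carried G, as they would at an inherited or line-specific sequence variant. A position was counted where it lay on chromosomes 1 to 22 or X, was listed in both libraries with at least 10 A or G reads in each, and had a G share, G reads over A plus G reads, of at least 35% in either library. This rule found 310 members among 1423964 eligible positions, or 0.0218% (0.0194 to 0.0243). HEK-293T, a human embryonic kidney line, carried a CIRTS-hADAR biosensor, an RNA-targeting system that carries the editing enzyme ADAR, and was sequenced as mRNA in 1 library without the small molecule ABA and 1 library with it, from 1 biological replicate. The biosensor and the cell line are common to both libraries, so no library without the ADAR construct stands beside them, and nothing here has a replicate check. Listed positions numbered 4079392 without ABA and 3518802 with ABA, with 51089656 and 45275875 base reads. The G share chose the members, so the shares below describe them and test nothing. Intervals are exact Clopper-Pearson limits at 95%, cover counting error only, and are too narrow to the extent that 1 read covers several positions or is a copy of another.

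Among other sources, G at a reference A can come from the genome of the cells or from the RNA. A variant present on every copy of a chromosome gives G in all reads, and a variant present on some copies gives a share set by how many copies carry it and how strongly each is transcribed. HEK-293T is known for an abnormal karyotype with extra copies of many chromosomes, so shares other than 50% can arise from DNA alone. ADAR enzymes convert adenosine to inosine, which reverse transcription reads as G, and their sites often lie close together in double-stranded RNA. A read count at 1 position does not tell these sources apart, and genomic DNA reads of these cells were not used here. Whether reads were aligned to the right place was not tested either.

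The members fell into 2 groups with an empty interval between them. Of the 310, 157 (50.6%, 44.9 to 56.3) had a pooled share, with the reads of both libraries summed, of at least 95% and are called fixed. The other 153 had pooled shares from 23.1% to 84.8% with a median of 46.9%, and 0 members lay from 85% to under 95%. At the 157 fixed members G made up 2917 of 2920 A and G reads without ABA (99.9%) and 3040 of 3046 with ABA (99.8%). Every read was G in both libraries at 148 of them. The members below fixed were grouped by the nearest of 33.3%, 50% and 66.7%, with limits at the midpoints. This gave 57 members nearest 33.3%, 63 nearest 50% and 32 nearest 66.7%, and 1 member above the upper midpoint of 83.3%. The class nearest 33.3% is incomplete, because a position under 35% in both libraries is no member.

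**Figure D1:**
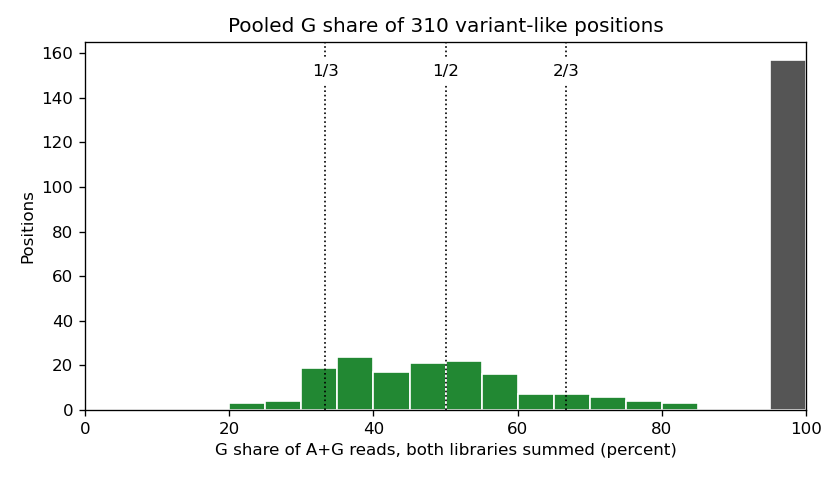
Number of variant-like positions (vertical axis) by pooled G share in percent, in bins of 5 percentage points (horizontal axis), with dotted lines at 33.3%, 50% and 66.7%. The dark bar holds the 157 fixed members, the green bars the 153 below fixed, and the bins from 85% to 95% are empty.

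Depth limited how finely these classes could be set. Members had a median of 16 A and G reads without ABA and 15.5 with ABA, against 16 and 16 at eligible positions. Among the 153 members below fixed, the interval of the pooled share held 50% at 124, 33.3% at 90 and 66.7% at 65. It held exactly 1 of these 3 values at 36 members, of which 15 held 33.3%, 9 held 50% and 12 held 66.7%. At 102 members it held 2 of them and at 13 members all 3. The remaining 2 held none and both lay on the plus strand of chromosome 3, at 23961762 and 33907945 in hg19 coordinates as the files give them. The first had G in 31 of 39 reads without ABA and in 33 of 38 with it, and the second in 20 of 24 and in 19 of 22. Their pooled shares of 83.1% (72.9 to 90.7) and 84.8% (71.1 to 93.7) were the highest below the empty interval.

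The deepest members show each class at its most precise. The deepest fixed member, on chromosome 2 at 133012571 (minus), had 150 of 150 reads as G without ABA and 156 of 156 with ABA, so that its pooled share was at least 98.8%. On chromosome 16, position 33964017 (plus) had 98 of 98 and 97 of 97, and position 33963086 (plus) had 56 of 56 and 59 of 59. No A read was found at any of these 3 in either library. Nearest 66.7%, the next deepest after the chromosome 3 position already given was position 236175339 (minus) of chromosome 1. Without ABA 18 of its 26 reads were G (69.2%, 48.2 to 85.7), and with ABA 19 of 29 (65.5%, 45.7 to 82.1). Position 49396751 (minus) of chromosome 3 had 16 of 24 reads (66.7%) and 20 of 27 (74.1%). The intervals of both libraries overlapped at both positions.

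Nearest 50%, position 205684067 (minus) of chromosome 1 had G in 34 of 71 reads without ABA (47.9%, 35.9 to 60.1) and in 29 of 63 with ABA (46.0%, 33.4 to 59.1). Position 182352621 (minus) of the same chromosome had G in 18 of 37 (48.6%) and then in 19 of 42 (45.2%). On chromosome 6, position 42856029 (plus) had G in 21 of 41 (51.2%) and in 16 of 38 (42.1%). At all 3 the pooled interval held 50%. Nearest 33.3%, the deepest were a pair of positions 41 nt apart on chromosome 21 (plus). Position 46640815 had G in 25 of 93 reads without ABA (26.9%, 18.2 to 37.1) and in 58 of 146 in the other library (39.7%, 31.7 to 48.1). Position 46640856 had G in 16 of 67 (23.9%, 14.3 to 35.9), then in 51 of 113 (45.1%, 35.8 to 54.8). Both were higher with ABA, and the second had intervals that barely overlapped. Chromosome 12 at 76449900 (minus) went the other way, with 27 of 67 (40.3%) and 23 of 71 (32.4%), within overlapping intervals.

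The 2 libraries gave like shares at most members. The limit of 35% was reached in both by 261 of 310 members (84.2%, 79.6 to 88.1), without ABA alone by 21 and with ABA alone by 28. Across the 310 members the shares had a Pearson correlation of 0.93, and across the 153 below fixed 0.56, both over positions that share their libraries and were chosen by these shares. At the fixed members the difference never passed 10 percentage points. Below fixed the absolute difference had a median of 9.87 points, 79 of 153 differed by under 10 points, and 29 by 20 points or more. A choice made in 1 library can be read in the other, which it did not use. Of 282 positions at 35% or more without ABA, 261 (92.6%) were also there with ABA, and their pooled share with ABA was 78.6% (77.5 to 79.7). Of 289 positions at 35% or more with ABA, 261 (90.3%) were also there without ABA, at a pooled 74.3% (73.1 to 75.4).

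The same reading was split by share. The 155 positions at 95% or more without ABA all had at least 92.9% with ABA, pooled 99.8% (99.6 to 99.9), and the 155 chosen with ABA all had at least 90% without it. The 127 positions chosen without ABA at 35% to under 95% had 50.6% there and 51.3% (49.3 to 53.3) with ABA. The 134 chosen likewise with ABA had 52.8% there and 46.9% (45.04 to 48.8) without ABA. The share in the choosing library is raised by the choice itself, so a lower value in the other library shows no difference between libraries.

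**Figure D2:**
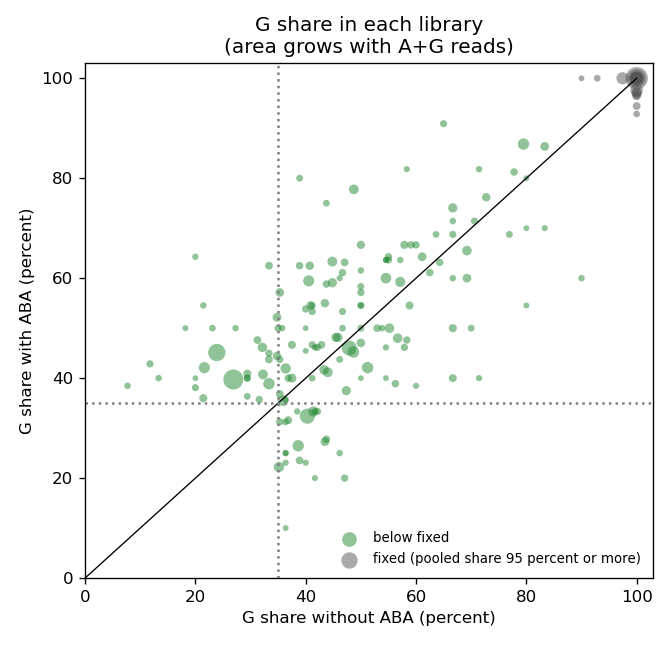
G share without ABA (horizontal axis, percent) against G share with ABA (vertical axis, percent) for the 310 members, with point area growing with A and G reads. The line marks equal shares and the dotted lines 35%; fixed members (dark) lie in the upper corner, and of the members below fixed (green) 93 lie above the line and 58 below it.

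Members below fixed had a somewhat higher G share with ABA. Without ABA, G made up 1405 of their 3094 reads, a pooled share of 45.4% (43.6 to 47.2). With ABA it made up 1493 of 3045, or 49.0% (47.2 to 50.8). Of the members 93 were higher with ABA, 58 lower and 2 equal. The difference was 3.62 percentage points. It was 5.84 points with a share limit of 50% and 6.74 points at members with at least 50 reads in each library. Only 4 members below fixed were that deep, and the rise there came from the chromosome 21 pair. The others, chromosome 12 at 76449900 and chromosome 1 at 205684067, changed by -7.90 and -1.86 points. The size of the difference thus depended on which members were taken. In each class more members were higher with ABA than lower, with 32 higher and 25 lower nearest 33.3%, 40 and 22 nearest 50%, and 20 and 11 nearest 66.7%. The classes and limits use the shares that chose the members, so these splits only describe. Without chromosome 21 the shares were 46.3% and 49.6%, and for members at 35% or more in both libraries they were 52.4% and 55.7%. Other sets of positions, which the rule left out but which met the same share limit in either library, were read the same way. Choice by share can move their values too, so they are no independent check. The 45 A-to-C and A-to-T variant-like positions below 95% had 44.8% (41.2 to 48.5) and 49.1% (45.6 to 52.7), 26 higher and 17 lower. The 166 A positions below 95% that met the share but had under 10 reads in a library had 48.0% (45.4 to 50.6) and 48.3% (45.7 to 51.01), 83 higher and 80 lower. The difference had a like size where the variant base was not G, though within overlapping intervals. At the shallower positions the shares lay well within each other's interval.

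No member passed the test between libraries. Fisher's exact test, two-sided and run at each position with Benjamini-Hochberg adjustment over all 1423964 eligible positions, called 0 members and 0% of eligible positions. At an unadjusted p under 0.05, 3 members were higher with ABA and 0 lower, against 0.00471% and 0.00014% of eligible positions and 0.00485% in either direction. G made up 13469 reads without ABA and 25378 with ABA over the 1423654 eligible positions that were no members, so most of these had no G read. A position without G cannot reach such a p, whereas each member has G reads, so the percentages are no like background. Since the rule used the G shares, nothing is read from the count of members. The test compares 2 libraries and not the conditions. The 3 were chromosome 21 at 46640856 (exact p = 0.00645), chromosome 16 at 4562351 (minus), with 2 of 10 and 9 of 14 reads (exact p = 0.0472), and chromosome 16 at 83846041 (plus), with 19 of 39 and 14 of 18 reads (exact p = 0.0478). All had an adjusted p of 1 by that method. At these depths the test had little room to call a difference, and the count of 0 does not show that the libraries were alike.

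Among members with at least 20 reads in each library, the 6 largest changes were all towards a higher share with ABA. After chromosome 21 at 46640856, at 21.3 points, came chromosome 2 at 10930903 (minus), where G went from 8 of 37 reads (21.6%, 9.83 to 38.2) to 16 of 38 (42.1%, 26.3 to 59.2). On chromosome 1, position 220321023 (plus) went from 15 of 37 (40.5%) to 22 of 37 (59.5%). On chromosome 5, position 224633 (plus) went from 13 of 29 (44.8%) to 19 of 30 (63.3%). The last 2, both on the minus strand, were chromosome 15 at 80137560, with 34.8% and 52.2%, and chromosome 12 at 13128058, with 50% and 66.7%. The intervals of the 2 libraries overlapped at all 6. Only 38 members below fixed were this deep, and only 2 of them changed by 20 points or more. The next largest change among them went the other way, by -16.2 points, at position 67494494 (minus) of chromosome 15. Over all members below fixed, 29 changed by 20 points or more, 20 towards a higher and 9 towards a lower share with ABA.

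Members were found on 23 of 23 chromosomes, but on chromosomes 19 and 22 every member was fixed. Chromosome 19 had 15 fixed members of 15 (100%, 78.2 to 100), from position 582775 to 52646462, a span of 52.1 Mb with 61630 eligible positions. Chromosome 22 had 9 of 9, over 23.1 Mb. On the other chromosomes 133 of 286 members were fixed (46.5%, 40.6 to 52.5). This contrast was noticed in the members, so it was read again at positions the rule did not use. Among positions that met the share with under 10 reads in a library, 25 of 27 on chromosomes 19 and 22 were fixed (92.6%, 75.7 to 99.1), against 172 of 336 elsewhere (51.2%, 45.7 to 56.7). Among A-to-C and A-to-T variant-like positions 7 of 7 were fixed there and 37 of 82 elsewhere. Eligible positions with a pooled share of at least 15% that stayed under 35% in both libraries numbered 1 on chromosome 19 (0.151 per 10000, 0.00383 to 0.843) and 0 on chromosome 22 (up to 0.903), against 67 or 0.471 per 10000 over all. Both intervals held the overall value.

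**Figure D3:**
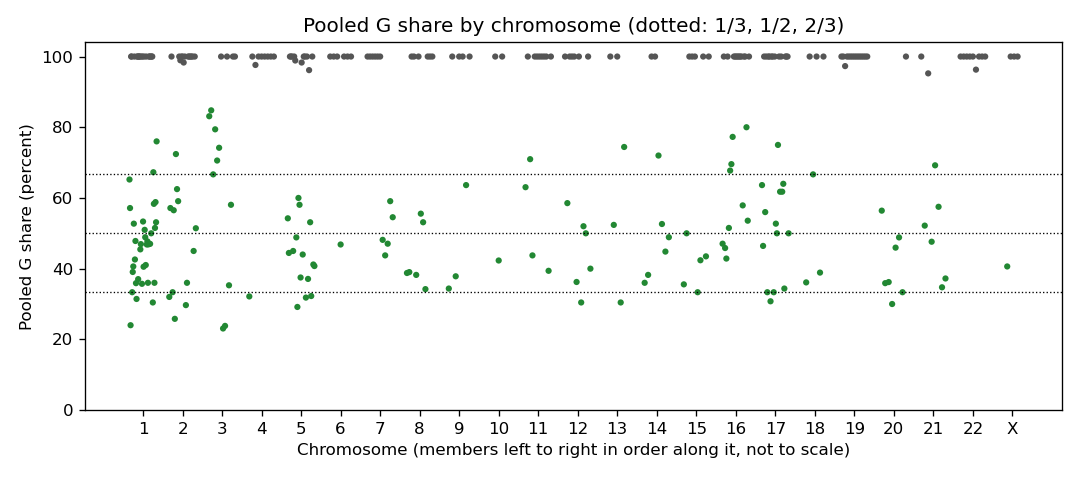
Pooled G share in percent (vertical axis) of each member by chromosome (horizontal axis), members of a chromosome in order along it but not to scale; dark points are fixed, green points below fixed, and dotted lines mark 33.3%, 50% and 66.7%. Chromosomes 19 and 22 hold dark points alone, and on chromosome 3 the first 6 members stand at 66.7% or higher.

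Chromosomes 4, 6, 10 and X each had 1 member below fixed. Chromosome 4 had 8 fixed of 9 and chromosome 6 had 6 of 7, and at shallower positions 11 of 14 and 17 of 18 were fixed. Chromosome 10 had 3 members, 2 of them fixed, with 9 of 9 fixed at shallower positions and 4 of 4 for A-to-C and A-to-T. Chromosome X had 4 members, 3 of them fixed, and 7 of 9 at shallower positions. Chromosome 20 lay at the other end, with 1 fixed of 8 (12.5%, 0.316 to 52.7) and 2 of 9 at shallower positions. Its 7 members below fixed, from 463995 to 57020573, had pooled shares from 30% to 56.4% with a median of 36.2%. The 7 shallower positions below fixed of that chromosome had a pooled share of 36.6% (28.4 to 45.5), against 48.2% (46.3 to 50) over all chromosomes. Chromosome 1 held the most members, 51, of which 17 were fixed.

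Some stretches kept 1 kind of share over many megabases. On chromosome 3, from 23961762 to 58112440, 6 successive members had pooled shares from 66.7% to 84.8% with a median of 76.8%, and no fixed member lay among them. At 4 shallower positions below fixed in this stretch G made up 61 of 74 reads (82.4%, 71.8 to 90.3), beside 54.4% (48.6 to 60.1) over all shallower positions below fixed on chromosome 3, these included. Another 4 shallower positions in the stretch were fixed. On chromosome 1, 8 successive members from 233519277 to 243664614 were below fixed, from 30.4% to 76%, so that this stretch kept no single level. On chromosome 7, the 6 members from 6505901 to 133976232 were all fixed and the 5 that followed, to 158536267, had 43.8% to 59.1%. Shallower positions did not separate in that way, since 3 of 9 in the first part were below fixed. These stretches were picked after their shares were seen.

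The density of members differed between chromosomes. It was 2.18 per 10000 eligible positions (1.94 to 2.43) over all, with a median of 2.20 over chromosomes. The lowest densities were on chromosome X, 4 of 76260 positions (0.525 per 10000, 0.143 to 1.34), chromosome 10, 3 of 55030 (0.545, 0.112 to 1.59), and chromosome 6, 7 of 77246 (0.906, 0.364 to 1.87), whose intervals lie below the overall value. Shallower positions gave 1.55 (0.707 to 2.93) on chromosome X, 1.44 (0.658 to 2.73) on chromosome 10 and 2.34 (1.39 to 3.70) on chromosome 6, against 2.54 (2.28 to 2.81) over all. All 3 were again below the overall value there, but with intervals that held it. The highest were chromosome 21 with 5.81 (2.51 to 11.4), from 8 members, and chromosome 16 with 3.58 (2.25 to 5.43). Chromosome 21 included a pair 41 nt apart, and chromosome 16 a cluster of 3 members and one of 2, each within 1000 nt. The intervals count such neighbours as separate members and are too narrow to that extent. Whether these densities stay above the overall value with each cluster counted once was not tested. At shallower positions chromosomes 21 and 16 had 2.11 (0.436 to 6.18) and 2.72 (1.52 to 4.49). Chromosome 21 was below the 2.54 over all there and chromosome 16 again above it. Both intervals held that value and also the density of members, so the shallower positions do not decide. Members lay on the plus strand in 153 cases and on the minus strand in 157.

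**Figure D4:**
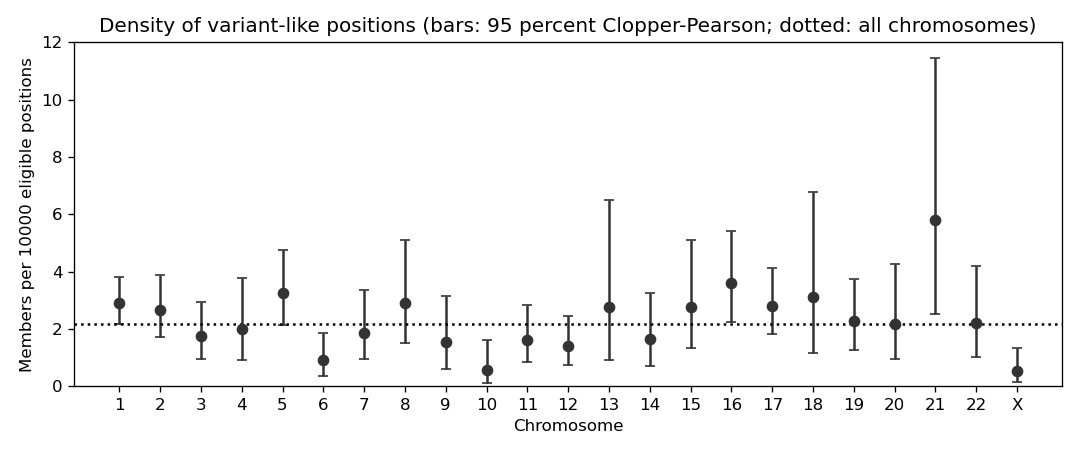
Members per 10000 eligible positions (vertical axis) for each chromosome (horizontal axis), with exact 95% intervals as bars and the value of 2.18 over all chromosomes as a dotted line. Chromosomes X, 10 and 6 lie below the line with their whole interval, and chromosomes 21 and 16 above it, with the members of a cluster counted separately.

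Density differed little between depths. Grouped by the shallower of the 2 libraries, fixed members numbered 1.26 per 10000 eligible positions at 10 to under 15 reads, 1.003 at 15 to under 20, 0.819 at 20 to under 30, 0.814 at 30 to under 50 and 1.39 from 50 reads. Members below fixed numbered 1.01, 1.25, 1.08, 0.916 and 1.39 in the same groups. All 5 intervals overlapped in each series. The last group held 4 fixed members and 4 below fixed among 28765 positions.

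Most members stood alone. The median distance between successive members of a chromosome was 3.26 Mb, and 12 of 310 members (3.87%, 2.02 to 6.66) had another within 100 nt on the same strand, in 6 pairs. Within 1000 nt there were 29 members in 12 clusters, 17 of them fixed. The largest lay on chromosome 2 from 133011953 to 133012945 (minus), where 6 of 115 eligible positions were members, all fixed, with 677 reads in all. On chromosome 16 from 33963086 to 33964017 (plus), 3 of 89 eligible positions were fixed members. Both clusters were deep, with the 3 deepest fixed members among them. Of the 6 pairs, 4 were of fixed members, 2 on chromosome 2 within the cluster just given, 1 on chromosome 17 at 33478140 and 33478187 (plus) and 1 on that chromosome at 75494705 and 75494746 (plus). The other 2 were the chromosome 21 pair and a pair on chromosome 1 at 1647814 and 1647871 (minus), with pooled shares of 65.2% and 57.1%.

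No pair was closer than 41 nt. Within 1 to 40 nt of a member on the same strand lay 4752 eligible positions, each counted once per member, and 0 were members, which allows up to 6.31 per 10000 at 3 counts, or 7.76 by the exact upper limit. The bound of 40 nt was set from the closest pair. From 41 to 100 nt there were 4059, of which 12 were members (29.6 per 10000, 15.3 to 51.6). These 12 are 6 pairs counted from both ends, so this interval is too narrow. The same holds for the interval of the share of members with another within 100 nt. Of the 6 pairs, 4 were exactly 41 nt apart, and the others 47 and 57 nt. Adding positions that met the share at under 10 reads gave 4 more pairs within 100 nt, at 42, 62, 65 and 71 nt. The smallest distance remained 41 nt on each strand taken alone, and without chromosome 21. Alignment settings are not given in the sources used here, and their part in this spacing and in the rates near members was not tested.

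Neighbouring A positions, which the rule did not use, carried few A-to-G mismatches within 10 nt of a member, most clearly beside fixed members. At positions with at least 10 reads in each library and within 10 nt of a member, G was found in 5 of 33983 reads without ABA, or 0.0147% (0.00478 to 0.0343). With ABA it was found in 10 of 33649, or 0.0297% (0.0143 to 0.0546). Over all such positions it was 0.0478% and 0.0906%, above both intervals. Beside fixed members alone, 2 of 16660 and 1 of 17356 reads carried G. Beside members below fixed, 3 of 17323 reads without ABA (0.0173%, 0.00357 to 0.0506) and 9 of 16293 with ABA (0.0552%, 0.0253 to 0.105) did. Those 2 intervals held the values over all. From 26 to 50 nt the rate was 0.0548% and 0.119%, and from 51 to 100 nt 0.0797% (0.0607 to 0.103) and 0.132% (0.107 to 0.160), both above the value over all. Farther out the rate was lower again, 0.0700% and 0.0910% over the next 100 nt and 0.0451% and 0.0839% beyond 200 and up to 500 nt. Leaving out chromosome 21 gave 0.0715% (0.0534 to 0.0937) and 0.102% (0.0802 to 0.128) from 51 to 100 nt, so that the value with ABA no longer stood above. Mismatches to C or T within 10 nt were 0.00883% (0.00182 to 0.0258) and 0.00297% (7.53e-05 to 0.0166), from 3 reads and 1 read, with intervals that held the overall values. From 51 to 100 nt they were 0.0554% (0.0398 to 0.0751) and 0.0333% (0.0216 to 0.0492) from 51 to 100 nt, against 0.0130% and 0.0139% over all. The higher rates at that distance were therefore not limited to A-to-G.

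**Figure D5:**
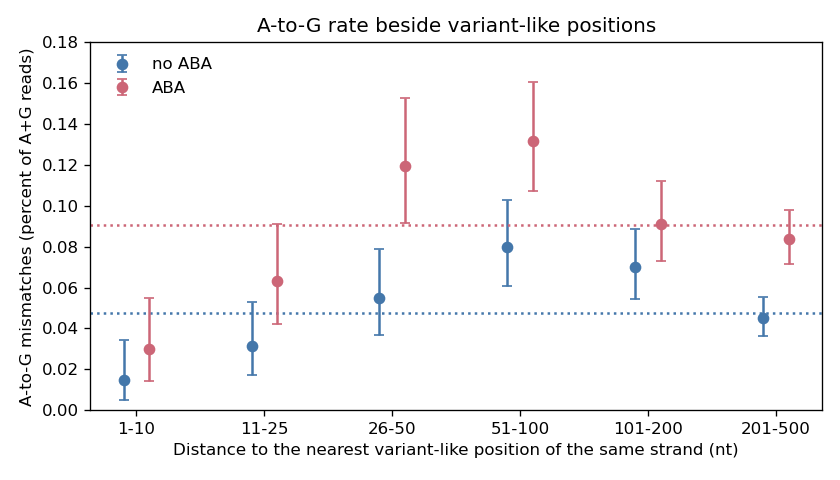
A-to-G mismatches as a percent of A and G reads (vertical axis) by distance in nt to the nearest member of the same strand (horizontal axis), at non-members with at least 10 reads in each library, without ABA (blue) and with ABA (red), with exact 95% intervals and dotted lines at the value over all such positions. Within 10 nt both libraries lie below their line, at 0.0147% and 0.0297%.

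Pooled over 50 nt on either side, the rate beside members had an interval that held the rate elsewhere. At all listed non-members the rate without ABA was 0.0421% (0.0321 to 0.0542), which is 0.899 (0.686 to 1.16) times the rate at other positions. With ABA the rate was 0.0790% (0.0650 to 0.0950), and the ratio 0.927 (0.763 to 1.12). Mismatches of A-to-T stood apart, at 2.85 (1.84 to 4.21) and 2.43 (1.52 to 3.69) times the rate elsewhere, from 25 and 22 reads. At non-members with at least 10 reads in each library these ratios were 1.22 (0.527 to 2.42) and 0.766 (0.248 to 1.79), so they rested on shallower positions. The ratio depended on the window. At 25 nt it was 0.486 and 0.594, and at 100 nt 1.38 and 1.21. By class, positions beside members nearest 33.3% had 0.0841% and 0.143%, ratios of 1.80 (1.14 to 2.70) and 1.67 (1.18 to 2.30). Without chromosome 21 these were 1.34 (0.766 to 2.18) and 0.798 (0.456 to 1.30), so the excess with ABA rested on chromosome 21. Without ABA 16 of 23 G reads remained, and the interval held both 1 and 1.80, so that the part of chromosome 21 there is not settled. Beside members nearest 50% the ratios were 0.575 (0.248 to 1.13) and 0.779 (0.462 to 1.23). Beside fixed members they were 0.758 (0.495 to 1.11) and 0.773 (0.573 to 1.02). Counting only non-members with at least 10 reads in each library, those beside fixed members had 0.550 (0.326 to 0.870) and 0.655 (0.472 to 0.885), below 1 in both libraries.

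Read depth at fixed members was lower than just beside them. The depth of a position, both libraries summed, was divided by the mean depth of listed A positions within 10 nt. The median ratio was 0.918 at fixed members, 0.972 at members below fixed and 1.02 at other eligible positions. A ratio under 0.9 was found at 69 of 153 fixed members (45.1%), 26 of 152 below fixed (17.1%) and 8.89% of other eligible positions. Within the classes the median was 1.01 nearest 33.3%, 0.960 nearest 50% and 0.971 nearest 66.7%. The part of depth in the shares was not tested.

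The bases beside members differed from those beside other A positions. Only A of the transcript is listed, so an A next to a member can be read from the listing. An A stood 5' of 24.2% of members (19.5 to 29.4), 75 of 310, against 30.4% of eligible positions, and 3' of 19.7% (15.4 to 24.5), 61 of 310, against 31.0%. Fixed members had 20.4% (14.4 to 27.5) and 19.7%, and members below fixed 28.1% (21.1 to 35.9) and 19.6% (13.6 to 26.8). The lower share of a 3' A was thus found on both sides of the empty interval, and the lower share of a 5' A mainly at fixed members. Where the variant base was not G, the 5' shares were low too, but their intervals held the 30.4% of eligible positions. The 3' share was low at A-to-C positions but not at A-to-T positions. At A-to-C positions an A stood 5' of 19.7% (10.6 to 31.8) and 3' of 16.4% (8.15 to 28.1). At A-to-T positions it stood 5' of 14.3% (4.03 to 32.7) and 3' of 32.1% (15.9 to 52.4). The identity of neighbours other than A was not analysed here, as no hg19 sequence was used.

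The same rule with C or T in place of G found fewer positions. There were 61 A-to-C positions among 1422948 eligible (0.00429%, 0.00328 to 0.00551) and 28 A-to-T positions among 1422900 (0.00197%, 0.00131 to 0.00284), so A-to-G made up 77.7% (73.3 to 81.7) of the 399 in all. Their shares were split as those of the members were, with 32 of 61 and 12 of 28 fixed, together 49.4% (38.7 to 60.2) beside 50.6% for A-to-G. Both libraries were at 35% or more for 73 of 89 (82.0%, 72.5 to 89.4), beside 84.2%. Reads with C or T were rare at members themselves, 1 in 6015 without ABA and 6 in 6097 with ABA (0.0984%, 0.0361 to 0.214).

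Around the limit of 35% there was no natural break. In the higher of both libraries 46 positions had 35% to under 45%, 53 had 25% to under 35% and 158 had 15% to under 25%. Just inside lay chromosome 1 at 154573967 (minus), with 14 of 39 reads (35.9%) and 11 of 31 (35.5%), chromosome 2 at 135893372 (plus), with 35.1% and 22.2%, and chromosome 1 at 36068231 (minus), with 31.6% and 35.7%. Just outside lay chromosome 21 at 35281421 (minus), with 20 of 58 reads (34.5%) and 16 of 50 (32%), and chromosome 17 at 74561213 (plus), with 34.8% and 29.6%. Members near the limit and positions just outside it cannot be told apart at this depth.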

How the data were processed

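Adapters were trimmed with cutadapt and reads aligned with HISAT2 to hg19, per the submitters' processing notes, which give no versions; the base counter, read length, mismatch limits and duplicate removal are not given in the sources used here. The authors deposited counts, the number of reads of each base at every listed A (plus strand) or T (minus strand), not normalised, with a single base read cutoff of 5 per the file headers. The lowest listed depth was 6. Minus-strand counts were complemented, and positions were paired between the libraries by chromosome, position and strand. The members, and the tests and lists, were chosen with earlier results of these data known. Named sites were the 3 deepest of each class, the 5 clusters of most members, the 6 largest changes at 20 reads or more, and up to 3 positions within 1 percentage point on each side of the limit. Others, and the distance bins, depth ratio, shallower positions and stretches, were chosen after values were seen. Ratios have exact conditional binomial intervals. Tests and intervals came from scipy 1.17.1, tables from pandas 2.3.3 and numpy 2.4.6 under Python 3.11.15, and plots from matplotlib 3.10.9. The test was tested on simulated data, where it recovered few of the smaller rises. The rises there were added to the low rate of non-members and not to shares like those of members below fixed. Even the smallest was larger than the median difference at members below fixed. Alternatives covered coverage, share, strand, denominator, chromosome 21, window and cluster distance. Genes are not named, as an hg19 annotation was not used here.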

Additional observations from a re-analysis of the deposited data

Results flagged for a closer look

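Mitochondrial positions, which no comparison above used, held 4 variant-like positions by the same rule among 4335 eligible, and all 4 were fixed. The luciferase reporters held 0 among 443 firefly and 309 renilla positions.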

How the results depend on the processing

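The difference between libraries below fixed, the only result checked for a change of sign, kept its sign in each setting. At a minimum of 50 reads it came from 4 members below fixed, and the rise there from the chromosome 21 pair. That minimum was not combined with leaving out chromosome 21. Of 173 alternative values 125 stayed within the spread allowed for them, and the others follow. The fixed share on chromosomes 19 and 22 was 100% and the smallest distance 41 nt wherever a value could be had. At a coverage minimum of 20 reads there were 69 members, 44.9% fixed, 12 A-to-C and 2 A-to-T positions and a median of 1.37 members per 10000 over chromosomes. Positions chosen with ABA then had 72.9% without it, and the rate ratios beside members were 1.87 without ABA and 1.69 with ABA. Former members count as non-members at this setting, and their part in the ratios was not tested. At 50 reads there were 8 members, 3 A-to-C and 1 A-to-T, a chromosome median of 0, 62.5% reaching 35% in both libraries, 25% in clusters, 37.5% with a 5' A, 83.6% with ABA at positions chosen without it, ratios of 7.98 and 5.26, and a difference between libraries below fixed of 6.74 points. A share limit of 30% gave 75.3% with ABA at positions chosen without it, and 69.8% for the reverse. A limit of 50% gave 90.1% and 84.99%, with 63.8% fixed and a difference of 5.84 points. The plus strand gave 153 members, 39 A-to-C and 15 A-to-T, 80.0% at positions chosen without ABA, and ratios of 1.20 and 1.25. The minus strand gave 157, 22 and 13, 77.3%, and ratios of 0.624 and 0.617. Without chromosome 21, positions chosen with ABA had 75.8% without it. Requiring the share in both libraries gave 60.2% fixed and ratios of 0.665 and 0.717. Clusters within 1000 nt held 9.35% of members. Windows gave ratios of 0.486 and 0.594 at 25 nt, and 1.38 and 1.21 at 100 nt, so the ratio lay on either side of 1. A pooled share of at least 35%, chosen after seeing the data, gave 91.9% in both libraries and a ratio with ABA of 1.29. With 1 library per condition, no library could be left out. No paired analysis was possible because each condition has 1 library. Depth limits the classes: at about 16 reads per library most intervals hold more than 1 nominal share.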
